A study of Mus musculus with 2 samples.

Results

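Bidirectional promoter intervals were the open-chromatin intervals that held transcription start sites (TSSs) of at least 2 protein-coding genes on opposite strands. They were found by overlapping the consensus ATAC-seq intervals on the 19 autosomes with the transcript starts of the GENCODE annotation of mouse build mm10, and the counts of the libraries were not used. The intervals themselves were called from ATAC-seq signal, so whether a promoter has one, and how wide it is, depends on accessibility, and a wider interval can hold more start sites. There were 1211 such intervals among 119502 in all, or 1.01%. Of the 15727 autosomal intervals with a coding TSS they made up 7.70% (95% Wilson interval 7.29 to 8.13), and they held start sites of 2441 genes. The main comparison was with 14353 single-gene intervals, which held TSSs of 1 protein-coding gene. Starts of any annotated transcript counted, so this class also held intervals at later starts of a gene, for example of Son and Nbr1.

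The cells came from Olig2-mKate2, a mouse embryonic stem cell line in which the red fluorescent protein mKate2 is read from the Olig2 gene, a gene whose transcription factor marks the progenitors of motor neurons (pMN). Differentiation towards spinal cord neural progenitors (NPs) used 100 nM RA (retinoic acid) and 100 nM SAG, which activates Sonic hedgehog (Shh) signalling, from day 3, and mKate2-positive cells were sorted at day 5. Because the reporter is driven by Olig2, the sort also takes cells that have just left the progenitor state, and all cells derive from 1 reporter line. By the study's account, some sorted cells also hold NKX2.2 beside OLIG2. NKX2.2 marks p3, the most ventral progenitor type. ATAC-seq, which cuts and tags open DNA with the Tn5 transposase, was run on 50000 live cells a library in 2 replicate libraries of 1 group, so conditions could not be compared.

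The libraries held 31876165 and 31672240 counts over all intervals, and the bidirectional intervals took 6.58% and 6.46% of them. Nothing in the labels said whether the libraries came from separate cultures, so the spread between them may be technical, and a two-sided exact sign-flip test over 2 libraries cannot give a p below 0.5. Differences between classes of intervals are therefore given in each library with no p-value, and intervals were not treated as replicates. Promoters of marker genes were read beside the labelled cell type: Olig2 (946 ± 23.2 normalised counts per kb, mean ± SD over the 2 libraries), Nkx6-1 (1452 ± 27.3), Sox2 (862 ± 25.8) and Pax6 (1121 ± 12.3, the highest of 3 intervals) of ventral progenitors were open, T of the mesoderm stood at 204 ± 33.4, and the pluripotency genes Pou5f1 and Nanog had no interval at their start sites. Olig2 and Sox2 were at the 64.2 and 59.2 percentiles of single-gene intervals, defined above. The study reports that pMN share most of their accessible chromatin with more dorsal progenitors. Open promoters therefore cannot tell pMN from these progenitors.

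A bidirectional promoter lies between 2 genes that are transcribed away from each other, so that the nucleosome-poor stretch upstream of one gene is also the upstream stretch of the other. Such promoters are often rich in CpG dinucleotides and poor in TATA boxes, and head-to-head pairs are common among genes of DNA repair, of mitochondria and of the histone clusters. Their sequences often hold sites of general promoter factors, among them the ETS family, NRF1, YY1, the SP family and NF-Y, which binds the CCAAT box.

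The bases between the opposite start sites are shown for 8 divergent members, since the results on spacing and motifs concern this stretch. The first 4 had some of the highest densities, the next pair of entries belong to textbook pairs with 1 or more motif types, and the last pair of entries show a nearly closed member and a histone member. Each is written 5′ to 3′ on the plus strand of mm10 from the RefSeq assembly GRCm38.p6, from the base after the minus-strand start site (the gene read leftwards) to the base before the plus-strand start site. None of these bases lay in an annotated exon. Capitals mark letters that matched 1 of 8 motifs on either strand. The ETS family was searched as CCGGAAG and the factor NRF1 as GCGCATGC. The factor YY1 was searched as AAGATGGCG and the box that NF-Y binds as CCAAT. The GC box of the SP family was searched as GGGCGG and the cyclic AMP response element (CRE) as TGACGTCA. The TATA box was searched as TATAAA and the E-box of basic helix-loop-helix factors as CAGCTG.
Ift122/Mbd4 (chr6:115853372-115853469): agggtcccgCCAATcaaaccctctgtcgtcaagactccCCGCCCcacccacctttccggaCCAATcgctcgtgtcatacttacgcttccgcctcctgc
Cdca3/Usp5 (chr6:124829485-124829546): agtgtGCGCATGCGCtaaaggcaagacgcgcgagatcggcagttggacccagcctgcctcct
Nudt21/Ogfod1 (chr8:94037032-94037197): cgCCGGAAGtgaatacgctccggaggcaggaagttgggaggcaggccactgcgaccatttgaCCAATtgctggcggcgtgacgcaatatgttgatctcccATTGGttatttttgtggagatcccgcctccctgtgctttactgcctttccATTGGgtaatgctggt
Fto/Rpgrip1l (chr8:91313263-91313524): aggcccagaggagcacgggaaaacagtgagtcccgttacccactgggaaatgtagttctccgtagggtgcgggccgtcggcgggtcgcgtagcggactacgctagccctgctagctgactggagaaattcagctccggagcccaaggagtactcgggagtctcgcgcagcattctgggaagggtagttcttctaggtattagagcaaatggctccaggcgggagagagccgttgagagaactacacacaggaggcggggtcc
Mrps12/Sars2 (chr7:28741821-28741991): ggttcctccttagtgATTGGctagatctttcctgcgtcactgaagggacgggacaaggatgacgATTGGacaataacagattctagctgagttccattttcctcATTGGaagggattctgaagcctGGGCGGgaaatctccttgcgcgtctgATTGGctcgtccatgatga
Brca1/Nbr1 (chr11:101551956-101552148): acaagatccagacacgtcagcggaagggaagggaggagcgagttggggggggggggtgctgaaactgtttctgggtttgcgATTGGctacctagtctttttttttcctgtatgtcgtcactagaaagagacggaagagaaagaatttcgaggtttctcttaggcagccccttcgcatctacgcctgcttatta
Abcg5/Abcg8 (chr17:84683012-84683120): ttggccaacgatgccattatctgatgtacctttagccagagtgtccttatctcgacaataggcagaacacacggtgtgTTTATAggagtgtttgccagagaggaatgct
Bola1/Hist2h2ab/Hist2h2ac/Hist2h2be (chr3:96219710-96219864): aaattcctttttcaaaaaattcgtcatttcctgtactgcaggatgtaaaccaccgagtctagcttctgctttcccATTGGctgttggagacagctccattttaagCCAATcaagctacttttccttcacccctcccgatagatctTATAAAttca
The open members differed in the letters between their start sites. Mrps12/Sars2 held the CCAAT box on 4 occasions, Nudt21/Ogfod1 held it 3 times beside 1 ETS match, and Fto/Rpgrip1l held none of the 8 motifs although its density was among the 5 highest. The nearly closed Abcg5/Abcg8 held only TATA letters in this stretch, although its central 300 bases also held CCAAT letters, and the histone member held both CCAAT and TATA letters. A match is a run of letters and not a measured binding site, and a missing match says only that these letters are not in the bases shown.

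Bidirectional intervals were more accessible than single-gene intervals. The median density, in counts divided by the size factor and by the interval length in kb, was 1174 in library 1 and 1140 in library 2, against 726 and 704 in single-gene intervals. The difference was 448 per kb in library 1 and 436 in library 2, and the ratio was 1.62 ± 0.0018 (SD, n = 2 libraries). The members' median had an SD of 24.5 between the libraries. Both classes were lower in library 2, so this SD does not measure error in the difference. With only the gene's 5′ end counted as a start site in both classes, the ratio was 1.42. Of the members, 81.0% lay above the single-gene median and 21.7% lay in the top 10% of all coding TSS intervals, where 9.02% of single-gene intervals lay. Members were also more alike, with an SD of log2 density of 0.85 against 1.47, and their quartiles were 809 and 1595 per kb against 312 and 1161. All members had counts in both libraries, from 19 to 7887 in library 1 and from 20 to 7949 in library 2. A mean normalised count above 100 was reached by 1205 of the 1211 members and by 12686 of the 14353 single-gene intervals.

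Intervals whose opposite partner was a noncoding gene lay in between. The 1662 intervals with 1 coding gene and a noncoding gene on the opposite strand had medians of 927 and 895, below the members and above the 12545 intervals with no other TSS at 690 and 670. The members exceeded the coding-noncoding class 1.27 ± 0.0055-fold and the class with no other TSS 1.70 ± 0.0020-fold. Several coding genes on the same strand did not go with the members' level: the 163 intervals of this kind had medians of 839 and 800, below the members 1.41 ± 0.018-fold. Members with over 2 genes (45 intervals, 1197 and 1146) and members with 2 genes (1166 intervals, 1174 and 1139) had close medians in each library, and no test compared them. The ratio to single-gene intervals was above 1 on all 19 autosomes, from 1.45 on chromosome 19 to 2.06 on chromosome 1.

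**Figure D1:**
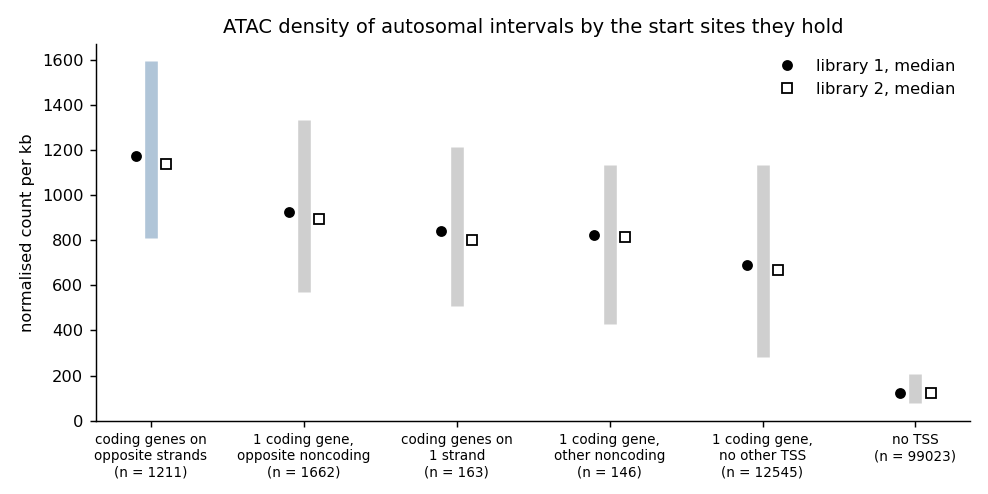
Median normalised count per kb (vertical axis) of autosomal intervals, by the start sites they held, in library 1 (filled circles) and library 2 (open squares), with bars from the lower to the upper quartile over intervals. Members with coding genes on opposite strands sat at 1174 and 1140, above the coding-noncoding class at 927 and 895 and the class with no other TSS at 690 and 670.

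Length and CpG content moved with the class. Members were longer, with a median of 1310 bp against 1173 bp, and a ratio of 1.12 that had an SD of 0.053 between autosomes. Within length classes the members stayed higher: between 1000 and 1500 bp the medians were 1274 and 890 per kb, between 1500 and 2000 bp they were 1086 and 776, and between 500 and 1000 bp they were 1219 and 652. Members under 500 bp were few (5) and weak, at 151 per kb against 119.

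The CpG content separated the classes more. Its measure was the observed over expected CpG ratio of the 300 bases around the start site or, for members, around the midpoint of the closest opposite pair, and the median was 0.849 in members and 0.742 in single-gene intervals. GC content hardly differed (63.7% and 63.3% in the same windows). A ratio of at least 0.6 was reached by 88.3% of members and 65.2% of single-gene intervals. Among these CpG-rich intervals the density ratio fell to 1.28 ± 0.0037, with medians of 1180 and 924 per kb, and for a CpG ratio over 1.0 it was 1.12 ± 0.0054, with medians of 1098 and 985. Below a ratio of 0.6 the 142 members had a median of 930 and the 4990 single-gene intervals one of 254. Both classes were less dense where CpGs were few. At a ratio of 0.4 to 0.6 the medians were 1032 and 442 per kb, at 0.2 to 0.4 they were 772 (26 members) and 175, and under 0.2 they were 180 (10 members) and 135. Weighted over 4 length classes crossed with 4 classes of the CpG ratio, the density ratio was 1.37 ± 0.0094. Against coding-noncoding intervals of the CpG-rich kind it was 1.204 ± 0.0085.

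**Figure D2:**
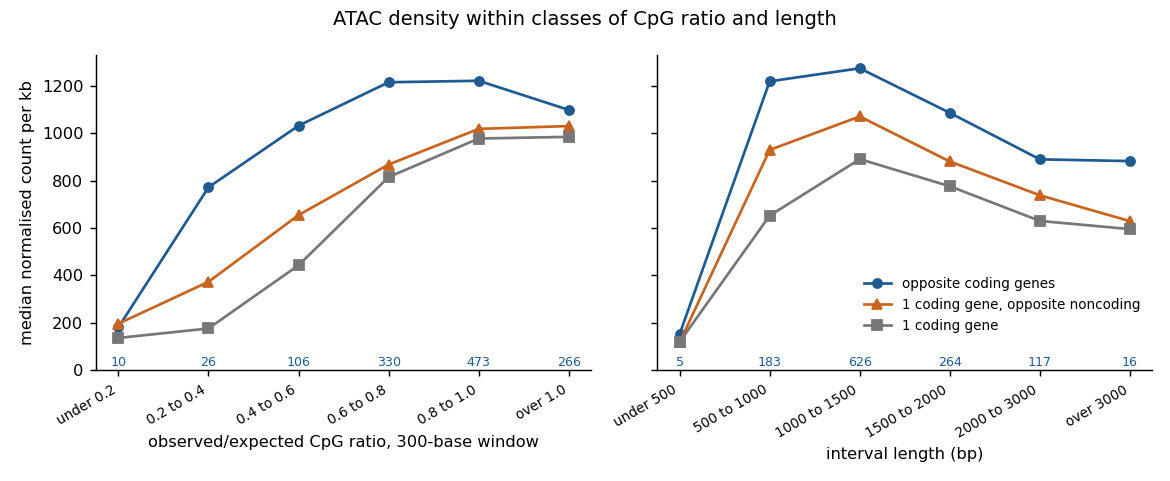
Median normalised count per kb, averaged over the libraries (vertical axes), within classes of the observed/expected CpG ratio (left) and of interval length in bp (right), for members, coding-noncoding intervals and all single-gene intervals, with the number of members in each class above the axis. The lines approached each other at high CpG ratios (1098 and 985 per kb over 1.0), lay apart at 0.2 to 0.4 (772 and 175) and were close again under 0.2 (180 and 135, with 10 members).

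Start sites lay off the centre of single-gene intervals. In members, the interval reached a median of 654 bp upstream and 609.5 bp downstream of a gene's start site, over 2468 combinations of gene and interval. In single-gene intervals it reached 405 bp upstream and 696 bp downstream, and the upstream median was 36.8% of the sum of these medians. In members the upstream stretch of one gene is the downstream stretch of the opposite gene, so their upstream share is set by how members were chosen and is not compared. The midpoint of the closest opposite pair lay a median of 137 bp from the interval's centre, and the start site of a single-gene interval 186 bp. A member must hold both sites, which draws their midpoint towards the centre, so these distances are not compared either. In the coding-noncoding class the upstream median was 37.8% of the sum of its upstream and downstream medians. It was like the other single-gene intervals in this respect.

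In most members the genes were divergent. The closest opposite start sites pointed away from each other in 972 members (80.3%, Wilson interval 77.9 to 82.4), with a median distance of 99 bp and quartiles of 54 and 194 bp. In the other 239 the closest transcripts overlapped at their 5′ ends, with a median overlap of 141 bp. Each member was labelled by its closest pair of annotated starts alone, so an overlapping member can also hold starts in divergent order. The split therefore depends on which transcripts are annotated. Divergent members had medians of 1216 and 1182 per kb and overlapping members 1069 and 1031, a ratio of 1.14 ± 0.0060.

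Density varied with the spacing in both arrangements. In divergent members it was 1044 and 1006 per kb for 224 members up to 50 bp apart. It was 1349 and 1301 for 247 members over 100 and up to 200 bp apart, reached 1464 and 1400 for 99 members at 200 to 300 bp, and was lowest at 939 and 850 for 22 members over 1000 bp apart. In overlapping members the medians were 1200 and 1165 for 71 members with up to 50 bp of overlap, 1272 and 1241 for 34 members with 100 to 200 bp and 749 and 724 for 34 members with 500 to 1000 bp. Split at 200 bp, close divergent members had 0.873 ± 0.0061 of the density of distant ones, whereas close overlapping members had 1.38 ± 0.0033 times that of distant ones. Over both arrangements these nearly cancelled (1.04 ± 0.0097), and with start sites of protein-coding transcripts only the pooled ratio turned to 0.930, so no direction is given for the pooled split. Across the 972 divergent members the correlation of log10 distance with log2 density was weak (Pearson r = 0.056, Spearman rho = 0.17), as the density rose and then fell. Interval length rose with spacing, from a median of 1183 bp up to 50 bp apart to 1384 bp at 200 to 300 bp. Whether length had a part in the change of density with spacing was not tested.

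**Figure D3:**
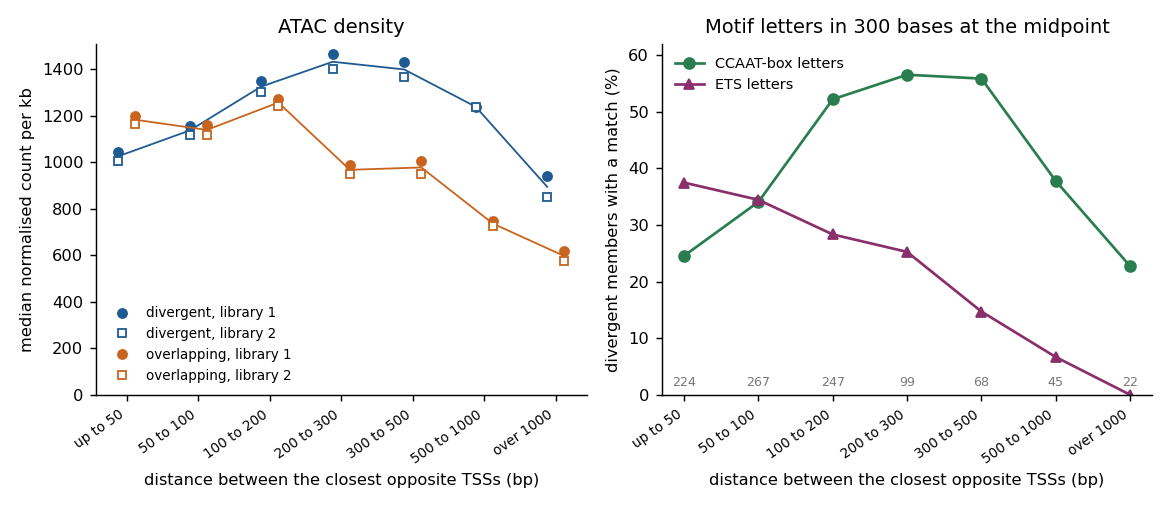
Left: median normalised count per kb (vertical axis) by the distance in bp between the closest opposite start sites (horizontal axis), for divergent and overlapping members in each library. Right: percentage of divergent members whose central 300 bases held CCAAT-box or ETS letters, with the number of members above the axis. Divergent members peaked at 200 to 300 bp (1464 and 1400 per kb), where 56.6% held the CCAAT box, and ETS letters fell from 37.5% at the closest spacing to none over 1000 bp, where the 300 bases at the midpoint no longer reach the start sites. At closer spacings more of these 300 bases lie downstream of the start sites.

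Motif letters were counted in windows from 250 bases before to 50 bases after each start site, in 2468 windows of members and 14353 of single-gene intervals. ETS letters (CCGGAAG) were in 26.0% of member windows (Wilson interval 24.3 to 27.7), 12.2% of single-gene windows and 14.2% of all 17157 coding windows. YY1 letters (AAGATGGCG) were in 4.86%, 1.87% and 2.38%. As a fold, the other letters differed less, although SP letters differed by 8.14 percentage points, more than YY1 letters at 2.99. NRF1 letters (GCGCATGC) were in 5.88% of member and 3.96% of single-gene windows, with 4.30% of all windows. CRE letters (TGACGTCA) were in 4.25% and 2.80%, with 3.01% of all. SP letters (GGGCGG) were in 65.8% and 57.7%, with 58.8% of all, and the CCAAT box was in 38.7% and 35.7%, with 36.2% of all.

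TATA and E-box letters went the other way. TATAAA was in 4.29% of member windows, 7.06% of single-gene windows and 6.70% of all windows, and CAGCTG in 13.0%, 16.9% and 16.3%. These differences moved with the window: in 300 bases centred on the midpoint or the start site TATA letters were in 4.46% of members and 4.97% of single-gene intervals, and among windows with a CpG ratio of at least 0.6 E-box letters were in 12.4% and 13.6%. The coding-noncoding windows held ETS letters in 16.0% (14.3 to 17.8), short of the members. Among windows with a CpG ratio of at least 0.6, ETS letters were in 28.7% of member and 16.7% of single-gene windows, whereas the SP difference turned to 70.0% against 74.9%. The windows of a divergent pair overlap each other, so both genes of a member can count the same letters. The Wilson intervals take the windows as independent and are therefore too narrow for members. ETS and YY1 letters could share bases by their ends, but in none of the 87 windows that held both did they; overlap between other motifs was not counted.

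**Figure D4:**
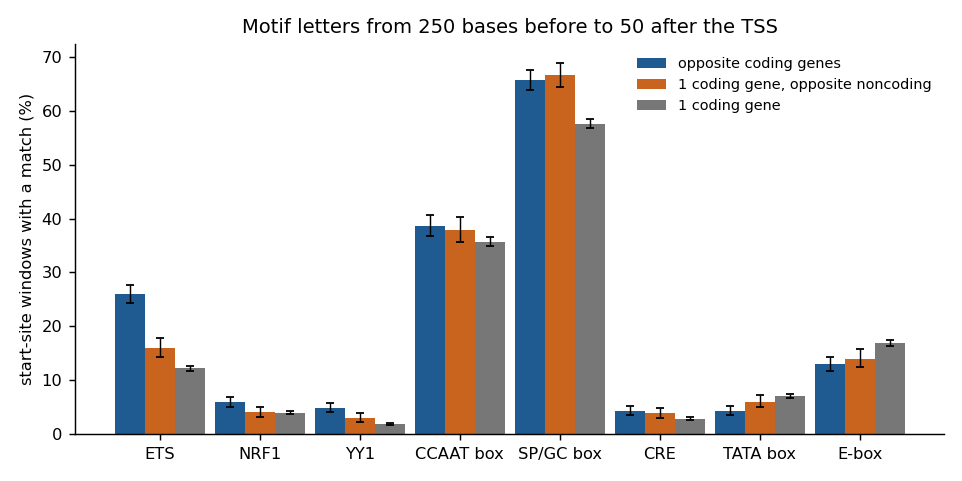
Percentage of start-site windows with each motif's letters on either strand (vertical axis, from 0) in members, coding-noncoding intervals and all single-gene intervals, with 95% Wilson intervals as error bars. These take windows as independent and are too narrow for members, whose windows overlap. ETS letters were in 26.0%, 16.0% and 12.2% of windows, and TATA letters in 4.29%, 6.02% and 7.06%. In windows centred on the midpoint or the start site TATA letters were in 4.46% of members and 4.97% of single-gene intervals.

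CCAAT and ETS letters went with density in different ways within members. With windows now centred on the midpoint, the 452 members with a CCAAT box had medians of 1433 and 1377 per kb and the 759 without 1061 and 1017, a ratio of 1.35 ± 0.0025. Members with and without ETS letters had medians of 1162 and 1151 per kb, a ratio of 1.01 ± 0.0046, while in single-gene intervals the same split gave 965 and 669 (1.44 ± 0.012). Members with SP letters stood 1.202 ± 0.0021-fold above those without, and members with YY1 letters (60 members) 1.10 ± 0.020-fold. In single-gene intervals these ratios were larger, at 2.14 ± 0.023 for SP and 1.48 ± 0.039 for YY1 letters. These splits were not made within CpG classes. A CpG ratio under 0.6 was found in 34.8% of single-gene intervals, with a median of 254 per kb, and in 11.7% of members. Single-gene intervals with ETS but no CCAAT letters had a median CpG ratio of 0.853, and those with neither 0.724. In members these were 0.877 and 0.847. Whether CpG content had a part in the ratios was not tested. CCAAT letters went with a higher density at each spacing of divergent members: 1.26 ± 0.018-fold up to 100 bp, 1.26 ± 0.032-fold at 100 to 200 bp and 1.55 ± 0.0076-fold at 200 to 500 bp, where medians were 1668 with the box (94 members) and 1074 without (73). In overlapping members the ratio was 1.33 ± 0.033 up to 100 bp and 1.59 ± 0.026 at 100 to 200 bp. There was no such rise at 200 to 500 bp (1.02 ± 0.049) or over 500 bp (0.962 ± 0.055), with 8 members holding the box in each. Among divergent members the share of the box rose with spacing from 24.6% up to 50 bp to 56.6% at 200 to 300 bp, while that of ETS letters fell from 37.5% to 25.3%. The window is of fixed length, so beyond 300 bp it holds neither start site, and the shares at wider spacings describe the middle of the stretch and not the bases next to the start sites. At closer spacings more of the window lies downstream of the start sites, within the genes. The shares at different spacings thus describe different parts of the promoters. Whether this had a part in the rise of the box or the fall of ETS letters was not tested. Members with CCAAT but no ETS letters stood at 1429 ± 48.5 per kb (337 members), those with both at 1365 ± 0.88 (115), those with ETS alone at 1096 ± 22.3 (214) and those with neither at 1003 ± 23.4 (545). The letters are a description of these sequences, and binding was not measured here.

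Read from the annotation, nearly all head-to-head pairs were open. There were 1201 autosomal pairs of coding genes with divergent start sites up to 1000 bp apart, and in 1087 of them (90.5%, Wilson interval 88.7 to 92.0) both start sites lay in the same interval. In no pair did they lie in separate intervals, in 37 only 1 start site was covered, and in 77 (6.41%) neither was. Of the 2350 genes in such pairs 96.1% had an interval at a start site, against 66.1% of the other 18457 autosomal coding genes.

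The 16 textbook pairs, named for their shared promoters, were each found in 1 member and all lay above the single-gene median of 715 per kb. Of all members, 81.0% lay above it. Densities of the 16 pairs ran from 750 to 2157 per kb with a median of 1463, and 10 of 16 were above the member median. Pdcd10/Serpini1, a vascular adaptor gene and a neuronal serpin gene, was the highest at 2177 and 2136 in libraries 1 and 2. Atm/Npat, a DNA damage kinase and a coactivator of histone gene transcription, was next at 2020 and 2117. Paics/Ppat, enzymes of purine synthesis, had 2019 and 1936.

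Several pairs of genome maintenance and protein folding lay close together in density. Brca1/Nbr1, a recombination repair gene and an autophagy receptor gene, had 1889 and 1773, and Mcm4/Prkdc, a subunit of the replicative helicase and the DNA-dependent protein kinase, had 1830 and 1772. Hspd1/Hspe1, the chaperonin and co-chaperonin of mitochondria, had 1742 and 1689. Mrps12/Sars2, both of mitochondrial translation, had 1719 and 1611. At the lower end, Fen1/Tmem258 (a flap endonuclease of replication) had 791 and 709, Surf1/Surf2 807 and 759, and Kbtbd4/Ndufs3 (a subunit of complex I) 861 and 837. Col4a1/Col4a2, the basement membrane collagens, had 929 and 908. The largest ratio between the libraries was 1.13, at Psmd13/Sirt3 (1488 and 1316).

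**Figure D5:**
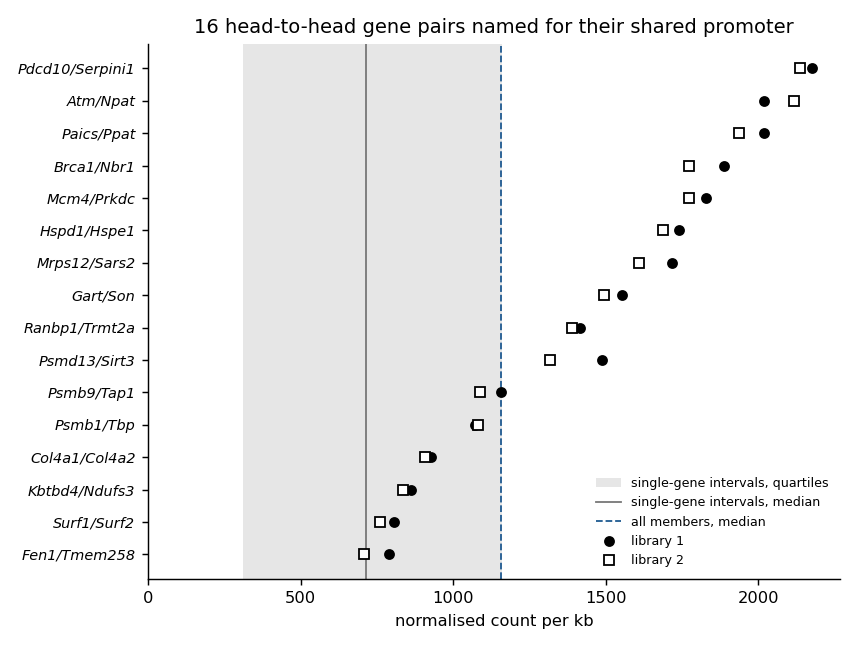
Normalised count per kb (horizontal axis) of the 16 textbook pairs in library 1 (filled circles) and library 2 (open squares), with the quartiles and median of single-gene intervals (grey) and the median of all members (dashed). By the mean of the libraries, all 16 lay to the right of the single-gene median of 715, from Fen1/Tmem258 at 791 and 709 in the libraries (mean 750) to Pdcd10/Serpini1 at 2177 and 2136.

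The gene families with an interval at a start site differed in how often they were in a member, against 16.9% of all such genes (2436 of 14438 symbols). Of the 59 replication-dependent histone genes 27 were in members (45.8%), of the 78 mitochondrial ribosome genes 34 (43.6%), of the 110 DNA repair and replication genes 44 (40.0%) and of the 74 oxidative phosphorylation genes 27 (36.5%). Proteasome genes (8 of 36, 22.2%) and cytosolic ribosome genes (16 of 73, 21.9%) were nearer to the share of all genes, and Zfp zinc finger genes were below it (29 of 321, 9.03%). None of the 38 Hox genes (Wilson interval 0 to 9.18%) and 1 of the 66 neural transcription factor genes (0.268 to 8.10%) were in a member. For the Shh pathway it was 1 of 19 genes, with an interval of 0.935 to 24.6% that includes the share of all genes.

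The neural member was Nfia, a gene of the glial switch, whose interval also held the start of the gene E130114P18Rik, at 492 and 457 per kb, below the single-gene median. The Shh pathway member was Sufu, a negative regulator of Gli factors, with Actr1a of the dynactin complex, at 1611 and 1538 per kb over 2700 bp.

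The DNA repair and replication members were the most open of the families with more than 1 member, with a median of 1435 per kb over 43 intervals against 1155 over all members. They ran from 427 at Rad51c/Tex14, which holds a recombination gene and a germ cell gene, to 2450 at Ap4m1/Mcm7, which holds another helicase subunit gene. Of the 43, 27 held the CCAAT box (37.3% of all members did) and 39 lay above the single-gene median (81.0% of all members did). Single-gene intervals of this family were high as well, at 1131 per kb. Oxidative phosphorylation members (27 intervals, median 895) and cytosolic ribosome members (17, median 910) were below the member median, and the latter were also below the single-gene intervals of their own family at 981. Mitochondrial ribosome members (33, median 1119) ran from 330 at Mrpl13/Mtbp to 2493 at Mrpl51/Ncapd2, the partner of which is a condensin subunit gene. Mrpl46/Mrps11, the member with a gene of this family on both sides, had 589 and 577.

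Histone members mostly paired a histone gene with another. All 12 held at least 2 histone genes, while 3 of 27 Zfp members and 1 of 33 mitochondrial ribosome members held 2 genes of their family. The histone members had opposite start sites 156 to 1280 bp apart, with a median of 274.5 bp against 104 bp over all members. CCAAT letters were in 10 and TATA letters in 9 of the 12 central windows, and ETS letters in none. Over all members the shares of these letters were 37.3%, 4.46% and 27.2%. Hist1h2ae/Hist1h2bg had 1519 and 1434 per kb, Hist1h2ak/Hist1h2bn 1464 and 1429, and Hist1h2ai/Hist1h2bl/Hist1h3h the lowest values at 828 and 772. Their intervals were long, with a median of 2274 bp. Histone genes are near-identical copies, and how the alignment placed reads that match several copies was not tested here.

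The 10 most open members were all divergent, 18 to 381 bp apart, and 7 of 10 held the CCAAT box. Over all members 80.3% were divergent and 37.3% held the box in the same central window. Of the 10, 4 lay on chromosome 8, which held 78 of the 1211 members. Ift122/Mbd4, an intraflagellar transport gene and a DNA glycosylase gene, was first at 4280 and 4159 per kb. Asf1b, a histone chaperone gene of S phase, with the predicted gene Gm10644, had 3707 and 3749, and Cdca3/Usp5, a gene of mitotic entry and a deubiquitinase gene, had 3420 and 3444. These were followed by members at close to equal levels. Fto/Rpgrip1l, an RNA demethylase gene and a gene of the ciliary transition zone, had 3486 and 3362. Derl2/Mis12, with a kinetochore gene, had 3225 and 3385, and Cdca2/Kctd9, with a gene of chromatin phosphatase targeting, had 3236 and 3263. Nudt21/Ogfod1, with a gene of messenger RNA 3′ end processing, had 3427 and 3208. The order from Cdca3/Usp5 to Derl2/Mis12 differed between the libraries, so these neighbours do not differ beyond their spread.

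The 5 weakest members had fewer than 100 normalised counts per kb. Gpr18/Ubac2, with a receptor gene of immune cells, had 13.8 and 14.5 per kb from 19 and 20 counts. Sp110/Sp140, nuclear body genes of immune cells, had 37.9 and 46.0, and Abcg5/Abcg8, sterol transporters of liver and gut, had 69.1 and 58.4. Pla2g2c/Ubxn10, with a secreted phospholipase gene, had 71.6 and 64.9, and Cnrip1/Plek, with the pleckstrin gene of blood cells, had 79.6 and 83.1. In all 5 the CpG ratio was under 0.6. Only 10 members (0.826%) lay below 123 per kb, the median of intervals with no TSS. Of single-gene intervals, which include those at later starts of a gene, 10.8% did.

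The longest members were mostly broad rather than dense. Cep295/Taf1d covered 4460 bp at 170 and 169 per kb, and Eno3/Pfn1, a muscle enolase gene and the profilin gene, covered 3700 bp at 558 and 542. Brd2/H2-DMa reached 1308 and 1251 over 3990 bp, the highest of the 5 longest. Members with 3 annotated genes numbered 44, and Bola1/Hist2h2ab/Hist2h2ac/Hist2h2be was the only member with 4, at 912 and 838.

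Members differed little between the libraries. Among the 1205 with a mean normalised count above 100, the SD of the log2 ratio of library 2 to library 1 was 0.068, against 0.093 in 12686 single-gene intervals, and no member differed by more than 1.5-fold. Members carry more counts, and at the same mean count of 1000 to 2000 the SDs were 0.062 and 0.065. The largest differences were at Cxcl16/Zmynd15 (136 and 107 counts, log2 ratio -0.35) and at Arel1/Fcf1 (420 and 336 counts, -0.32).

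The counts of the libraries were compared by an exact binomial test (two-sided), and after Benjamini-Hochberg adjustment over all 119502 intervals it called none at an adjusted p under 0.01 (0%), and so no member. The lowest adjusted p among members was 0.018, at Dolk/Nup188 with 1223 and 998 counts. At an unadjusted p under 0.05 it marked 10029 intervals (8.39%), 209 members (17.3%) and 12.5% of single-gene intervals. The test sets 1 library against the other with fragments taken as independent, so it covers counting error only, and it marks smaller differences where counts are higher. Among intervals with a mean count above 100, the median count was 1586 in members, 1046 in single-gene intervals and 303 over all. The spread of members was more than counting alone gives, with a chi-square of 2.02 per degree of freedom. It was 1.71 in single-gene intervals and 1.44 over all. At a mean count of 1000 to 2000 it was 2.11 in members and 1.92 in single-gene intervals. A part of the members' spread was a common shift: 75.8% of members were higher in library 1, with a median log2 ratio of -0.04, against 66.5% of single-gene intervals and 52.2% of all intervals above the same count. At a mean count of 1000 to 2000 the shares were 79.3% of members and 72.7% of single-gene intervals. The shift is small beside the difference between classes, whose ratio was 1.62 in either library.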

How the data were processed

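ATAC-seq was measured in 2 replicate libraries of 1 group. The deposited table gave raw counts of fragments in 119502 consensus intervals, which the authors made with featureCounts 2.0.1 on read pairs, per the file header, where a fragment counted in each interval that it covered by a fraction of at least 0.2 of its length. The study's methods name the nf-core ATAC-seq pipeline, the build mm10 and MACS peaks present in at least 2 replicates, and the submitters' processing notes name DESeq2. The intervals were defined over 5 libraries, and the other 3 columns were not used here. Strong intervals can therefore be long because peaks were merged, and weak promoters have no interval.

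Each library was scaled by its size factor from DESeq2 1.42.0 (edgeR 4.0.16 TMM as an alternative, R 4.3.3), and counts were then divided by the length in kb. Bins of distance exclude their lower and include their upper bound. Total counts were 31876165 and 31672240. Fragments carried no molecular identifiers, so intervals on shares cover counting error only. Start sites of all transcripts of GENCODE M21 were overlapped with the intervals, and the position used for a gene was that of most of its transcripts in the interval. All coding TSS intervals ended within the chromosomes of the RefSeq GRCm38.p6 sequence, which is mm10. GC, CpG and exact motif letters on both strands were read from it. Shares have 95% Wilson intervals. Python 3.11.15, numpy 2.4.6, scipy 1.17.1 and pandas 2.3.3 were used. The binomial test and the classes were tested on simulated data.

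The members, the 10 gene families, the 8 motifs and the tests were chosen with earlier results of these data known. Genes were named by a rule: 16 textbook pairs (1 further pair is not reported here), the 10 highest and 5 lowest densities, the 5 longest, the 5 with most genes, the 5 largest library ratios and members with a neural or Shh gene, of which not all are printed. Histone and family examples were chosen after their values were seen. Alternatives were other scalings, count limits, TSS definitions, length and CpG classes, and leaving out each library.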

Additional observations from a re-analysis of the deposited data

How the results depend on the processing

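No paired analysis was possible because all libraries belonged to the same group. Scaling by TMM or total counts cannot change a ratio within a library. The density ratio of members to single-gene intervals (1.62) kept its direction in every alternative run: 1.73 for counts per interval, 1.45 for summed counts over summed length, 1.60 and 1.44 for mean counts of at least 10 and over 100, 1.52 for protein-coding transcripts, 1.42 for the gene's 5′ end, 1.41 for intervals of 1000 to 2000 bp, 1.69 for divergent pairs within 1000 bp, 1.70 against intervals without other TSSs and 1.61 without chromosome 8. Alternatives chosen after seeing the data gave 1.28 (CpG ratio of at least 0.6) and 1.37 (length and CpG classes). Against coding-noncoding intervals (1.27) it was 1.18 for counts per interval, 1.26 for summed counts, 1.25 for mean counts over 100, 1.28 for protein-coding transcripts and 1.204 for the CpG limit. The ratio of close to distant pairs (1.04) fell to 0.859 for counts per interval and 0.930 for protein-coding transcripts, was 1.00 for summed counts and 1.32 for a limit of 500 bp, and, added after seeing the data, was 0.873 in divergent and 1.38 in overlapping members. Leaving out a library gave 1.62 and 1.62, 1.03 and 1.05, and 1.27 and 1.27 for these ratios. The length ratio (1.12) was 1.06 for mean counts over 100. The share of members (7.70%) was 8.58% for mean counts over 100 and 9.08% for the gene's 5′ end, and 1136 of the 1211 members remained with protein-coding transcripts only. TMM factors gave 6 intervals called between the libraries in place of 0, none of them a member. In points of member minus single-gene windows, centring on the midpoint moved SP letters to 5.59, TATA to -0.515 and E-box to -5.41. The CpG limit, added after seeing the data, moved NRF1 to 0.633, E-box to -1.14 and SP to -4.97. Coverage of head-to-head pairs (90.5%) was 93.5% within 300 bp, and 16.1% of all genes were in members with protein-coding transcripts only. Other alternatives stayed within the spread or interval (44 of 79), and the cause of the changes was not tested. Some of the 44 could not have left it and do not show stability. Other scalings cannot change a ratio within a library, and leaving out 1 of 2 libraries cannot move a mean ratio by as much as its SD.

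With 2 libraries the SD between them is itself uncertain, and no p-value was given for a class. Intervals exist only where peaks were called, so densities of closed promoters are not included. Annotated transcript starts need not be used in these cells.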

Other observations

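Chromosome 8 held 78 members, and 4 of the 10 most open ones. Its members had a median of 1560 per kb against 1136 on the other autosomes, a ratio of 1.38 and 1.39 in libraries 1 and 2. Single-gene intervals on it were higher by a similar factor (979 against 703 per kb, 1.39 and 1.41). The median of its 7279 intervals with no TSS was near that elsewhere (125 against 122 per kb, 1.02 and 1.03). That median varied little over the 19 autosomes, from 117 to 130 per kb, and intervals with no TSS had a median of only 52.5 counts. Whether a change of the whole chromosome would move it was not tested, so a rise confined to promoters is not claimed. The ratio of members to single-gene intervals was thus as large without chromosome 8 (1.61). The copy number of this chromosome in the line was not measured here.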
